A study of Mus musculus with 6 samples.

Results

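The genes described here encode the proteins of the mitochondrial ribosome, whose transcripts were sequenced from heart muscle of mice injected with STZ or PBS. They were taken as the protein-coding genes whose mouse symbol starts with Mrpl (large subunit) or Mrps (small subunit), after the Ensembl identifiers of the files were matched to the GRCm38 annotation. The rule found 78 genes among 55401 identifiers, 49 with an Mrpl and 29 with an Mrps symbol. All 78 passed the filter on low values and were tested.

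The mitochondrial ribosome translates the few messenger RNAs made from mitochondrial DNA, which encode core subunits of the respiratory chain and ATP synthase. Its ribosomal RNAs come from mitochondrial DNA, while every protein of both subunits is encoded in the nucleus, made in the cytosol and imported. Some of these proteins have counterparts in bacterial ribosomes and others occur only in mitochondria. The heart is rich in mitochondria and depends on this machinery for oxidative metabolism.

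STZ (streptozotocin) is a toxin taken up by pancreatic beta cells, widely used to model diabetes through loss of insulin. All mice were wild-type males, and the time label was 8 weeks in both groups, without the event from which it runs. The Ctrl group (PBS injection) and the DM group (STZ injection) had 3 libraries each. No source used here gives the strain, the age, the STZ dose or the blood glucose. Nor do the labels say whether each library came from its own animal, and if not, the p-values reflect technical spread.

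Levels are in FPKM, fragments scaled by transcript length and by the mapped fragments of the library, and so are relative to its total. The file of Ctrl3 listed 13.9% of the genes, and 41 of the 78 members. The comparison was therefore made between Ctrl1 and Ctrl2 on one side and DM1, DM2 and DM3 on the other, with Ctrl3 set beside them where it listed a gene. The files give no read counts. From the spacing of the lowest values the 5 complete libraries held very roughly 19000000 to 23000000 fragments, too rough for a counting interval. Summed over 5 cardiomyocyte markers, the libraries had 10609 and 11141 FPKM in Ctrl and 7822 to 8935 FPKM in DM, a sum made up mostly of Actc1, Myh6 and Myl2. Actc1 was called lower (log2 difference -0.70, but -0.22 after quantile normalization, and with an adjusted p of 0.0565 to 0.237 without Ctrl1, Ctrl2, DM2 or DM3), while Tnnt2 was at 671, 756 and 738 FPKM in Ctrl and at 813, 848 and 1099 FPKM in DM. Ryr2 (35.6, 28.9 and 30.3 FPKM in Ctrl against 21.8, 12.35 and 7.95 FPKM in DM), Myh6 and Myl2 had negative differences (-1.24, -0.36 and -0.13). None of them passed, and 4 of the 5 cardiomyocyte markers were negative. The paired Ctrl sums of each marker list are given from low to high. The atrial markers (4 genes, 0 called) summed to 302 FPKM in Ctrl2, 1328 FPKM in Ctrl1 and 961 to 3304 FPKM in DM. Nppa made up most of each sum (996 and 251 FPKM in Ctrl1 and Ctrl2, 2864, 876 and 1591 FPKM in DM). Its log2 difference was 1.66, with overlapping groups. Myl7, Sln and Myl4 had negative differences (-1.64, -1.31 and -1.20) and were at 0.28, 0 and 0.21 FPKM in DM3. The 3 neutrophil markers were all called higher (3.29 and 7.46 against 40.3 to 56.5 FPKM, Retnlg at 0 in Ctrl1 and Ctrl3). The call of S100a9 did not hold under every alternative setting. Of 4 endothelial markers (149 and 157 against 251 to 356 FPKM) Fabp4 was called higher, at 73.1 and 79.96 FPKM in Ctrl and 173, 214 and 265 FPKM in DM, which is most of the difference in the sum. In the same list 3 markers had a positive and 1 a negative difference. Pecam1 was at 19.83, 17.97 and 18.75 FPKM in Ctrl and at 24.77, 25.12 and 25.59 FPKM in DM, with no overlap (limma adjusted p = 0.0962). Cdh5 had a log2 difference of 0.14 and did not pass. Kdr, the negative one, was at 22.1 and 21.9 against 16.8, 20.7 and 21.4 FPKM. The call of Fabp4 was lost without Ctrl1 (adjusted p = 0.133) or Ctrl2 (0.110). Of 5 fibroblast markers (86.8 and 96.0 against 79.3 to 87.1 FPKM), Col1a1 and Col3a1 were called lower (Col1a1 with an adjusted p of 0.0851 without Ctrl1), while Pdgfra, Dcn and Tcf21 had positive differences (0.37, 0.38 and 0.25) and did not pass. No marker of smooth muscle and pericytes (107 and 108 against 93.2 to 131 FPKM), erythroid cells (161 and 174 against 182 to 520 FPKM) or macrophages (49.5 and 54.0 against 37.9 to 54.2 FPKM) was called. Among 3 adipocyte markers, summing to 2.15 and 4.09 FPKM in Ctrl and 0.20 to 1.59 FPKM in DM, Adipoq and Plin1 stayed under 1 FPKM in every complete library. In bulk tissue, fewer cells of a type and less RNA per cell cannot be told apart, and the part of these markers in the results below was not tested.

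Most mitochondrial ribosomal protein genes had slightly lower FPKM in DM hearts, but no single gene passed the test. Of the 78 genes, 62 had a negative and 16 a positive log2 difference (DM minus Ctrl on the log2(FPKM + 1) scale), while 43% of all 11556 genes tested had a negative one. The median log2 difference was -0.22 over the 49 large subunit genes and -0.13 over the 29 small subunit genes, beside 0.06 over all genes tested. In linear FPKM the median change was -16.7% in the large and -8.84% in the small subunit. Passing the limma test at an adjusted p of 0.05 were 0 of 78 genes in either direction, where 2.17% of all tested genes were called lower and 3.64% higher (5.82% in either direction). At an unadjusted p under 0.05, 18 members were lower and 1 was higher, beside 10.2% and 16.4% of all genes. The median was negative in both subunits under every scaling tried, and 55 (TPM) to 67 (median centring and quantile normalization) of the 78 genes were negative. In a fit that added Ctrl3 for the genes it lists, 5 members passed as lower (Mrpl19, Mrpl28, Mrpl37, Mrpl45 and Mrpl46), beside 3.75% of all genes.

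**Figure D1:**
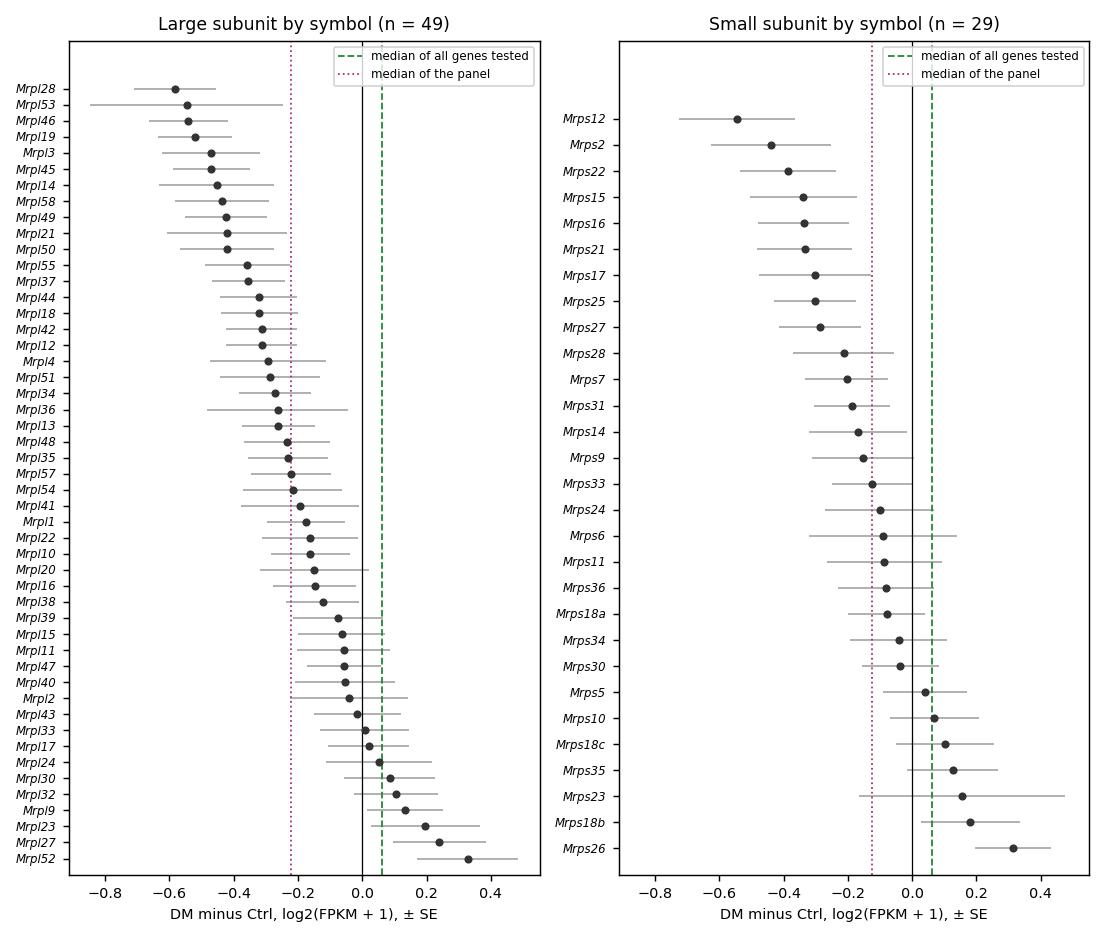
Difference between DM and Ctrl on the log2(FPKM + 1) scale (x axis) for each gene, with the standard error from limma as a bar, for the 49 Mrpl genes (left) and the 29 Mrps genes (right), and with the medians of the panel and of all genes tested as vertical lines. Most points lie left of 0, from -0.58 for Mrpl28 to 0.33 for Mrpl52.

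The 3 DM libraries lay below both Ctrl1 and Ctrl2, with no overlap, for 35 of the 78 genes, of which 26 were of the large and 9 of the small subunit. Over all tested genes 18.8% showed this pattern. The opposite pattern, DM above both, held for 5 members (Mrpl52, Mrpl32, Mrpl27, Mrpl9 and Mrps26), against 28.7% of all genes. With Ctrl3 included, 13 of the 41 members it lists had all DM below all Ctrl libraries (background 15.8%), and 2 had all DM above (background 26.1%). The 13 were 12 of the 31 large and 1 of the 10 small subunit genes that Ctrl3 lists. Ctrl3 lay above the DM mean for 30 of the 41 members and below every DM library for 2.

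The DM libraries were not alike. Relative to the mean of Ctrl1 and Ctrl2, the median member had a log2 difference of -0.24 in DM1, -0.25 in DM2 and -0.08 in DM3. The same median over all tested genes was 0.02 in DM1, 0.11 in DM2 and 0.06 in DM3. DM3 was the highest DM library for 52 of the 78 genes. It was below both Ctrl libraries for 40 members, against 59 for DM1 and 53 for DM2. The same count over all tested genes was 39.3% in DM1, 29.7% in DM2 and 37.3% in DM3. Without DM3 the median was -0.27 for the large and -0.20 for the small subunit. Atrial myosin Myl7 was at 0.28 FPKM in DM3 and 0.21 FPKM in Ctrl3, against 262 and 37.9 FPKM in Ctrl1 and Ctrl2 and 357 and 73.7 FPKM in DM1 and DM2. Its part in the position of DM3 was not tested.

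Summed over the 49 large subunit genes, FPKM were 1021 and 1047 in Ctrl1 and Ctrl2 and 840, 847 and 952 in DM1, DM2 and DM3. For the 29 small subunit genes the sums were 482 and 521 FPKM in Ctrl and 422, 450 and 472 FPKM in DM. The DM sums lay below both Ctrl sums in both subunits, by a narrow margin for the small subunit of DM3. As a share of the FPKM of all nuclear protein-coding genes, the 78 members made up 0.869% ± 0.0227 in Ctrl (SD, n = 2) and 0.722% ± 0.0352 in DM (SD, n = 3). The ratio of the large to the small subunit sum was 2.07 ± 0.0761 in Ctrl (SD, n = 2) and 1.96 ± 0.0714 in DM (SD, n = 3), with overlapping libraries (2.01 and 2.12 against 1.88 to 2.02). Over the 41 members listed in every file, Ctrl3 summed to 743 FPKM, close to Ctrl2 (737), while Ctrl1 had 695, DM1 606, DM2 646 and DM3 690 FPKM.

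**Figure D2:**
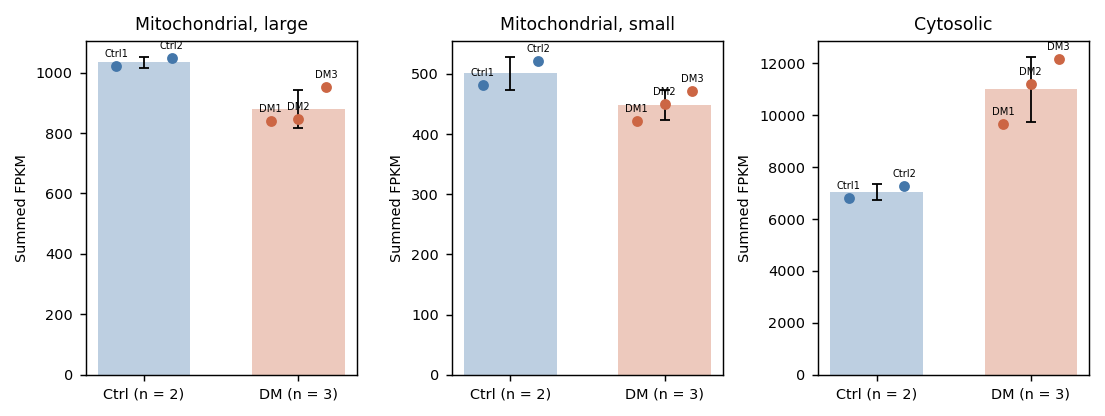
Summed FPKM (y axis, from 0) of large subunit and small subunit mitochondrial ribosomal protein genes and of cytosolic ribosomal protein genes in the 5 complete libraries, with bars for the mean and error bars for the SD. The mitochondrial sums of all DM libraries lie below both Ctrl libraries, and the cytosolic sums lie above them.

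Among large subunit genes with a bacterial counterpart, Mrpl28 (ENSMUSG00000024181, chromosome 17, 26123500 to 26126613, GRCm38) had the most negative difference of all 78 members. Its FPKM were 42.0, 40.7 and 43.6 in Ctrl1, Ctrl2 and Ctrl3 and 24.9, 27.2 and 29.9 in DM1, DM2 and DM3. No DM library reached any Ctrl library. The log2 difference was -0.58 ± 0.13 (SE, limma adjusted p = 0.0540), just short of the threshold. Over the alternatives the adjusted p ranged from 0.0179 to 0.330.

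Mrpl19 (ENSMUSG00000030045, chromosome 6, 81957851 to 81965958) was at 4.77, 4.29 and 4.06 FPKM in the Ctrl libraries and at 2.93, 2.80 and 2.82 FPKM in DM. The groups did not overlap and the DM values were nearly equal. Its log2 difference was -0.52 ± 0.12 (SE, limma adjusted p = 0.0545, from 0.0279 to 0.355 over the alternatives). Exons of Gcfc2 on the opposite strand cover 36% of its exon length, and whether the counting used strand is not stated.

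Mrpl3, a protein of the core of the large subunit, was at 9.22 and 8.89 FPKM in Ctrl1 and Ctrl2 and at 6.90, 6.84 and 5.15 FPKM in DM (log2 difference -0.47 ± 0.15, SE, limma adjusted p = 0.117). Mrpl12, the stalk protein that helps recruit translation factors, had the highest mean FPKM of the large subunit genes. It was at 83.5 and 87.7 FPKM in Ctrl1 and Ctrl2 and at 69.8, 66.5 and 69.8 FPKM in DM. The groups did not overlap, and the log2 difference was -0.31 ± 0.11 (SE, limma adjusted p = 0.141). The next in level, Mrpl34, Mrpl18, Mrpl42 and Mrpl41, went from means of 55.5, 58.3, 50.8 and 46.0 FPKM in Ctrl to means of 45.8, 46.4, 40.7 and 40.6 FPKM in DM. Of these only Mrpl41 overlapped between groups, and none passed the test.

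Among large subunit proteins found only in mitochondria, 18 of 19 had a negative difference, with a median of -0.29. For the 30 with a bacterial counterpart 22 were negative, with a median of -0.16. In the small subunit by symbol the order was the other way, with medians of -0.08 over 11 mitochondria-specific and -0.16 over 18 conserved genes. The 11 include Mrps30 and Mrps36 and the 18 include Mrps18a, which solved structures do not place in the small subunit. Mrps36 is itself the median gene of the 11 (-0.08). Mrpl46 (ENSMUSG00000030612, chromosome 7, 78775236 to 78783531) had 17.2 and 19.8 FPKM in Ctrl1 and Ctrl2 and 12.8, 12.2 and 12.0 FPKM in DM. Its log2 difference was -0.54 ± 0.12 (SE, limma adjusted p = 0.0580, from 0.0377 to 0.343 over the alternatives). Mrpl45 (ENSMUSG00000018882, chromosome 11, 97315716 to 97329920), which lies at the exit of the peptide tunnel facing the inner membrane, had 20.8, 19.9 and 23.2 FPKM in Ctrl1, Ctrl2 and Ctrl3. In DM it had 13.7, 14.2 and 15.5 FPKM, all below every Ctrl library (log2 difference -0.47 ± 0.12, SE, limma adjusted p = 0.0746). These 4 genes, Mrpl28, Mrpl19, Mrpl46 and Mrpl45, were the members with an adjusted p under 0.1, a level that 5.37% of all genes reached in the lower direction.

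Mrpl53 also stood among the lowest differences (-0.55 ± 0.30, SE, limma adjusted p = 0.298), but its value rests on Ctrl1. It was at 9.01 FPKM in Ctrl1, 4.02 in Ctrl2 and 3.56 in Ctrl3, against 3.08, 4.16 and 4.44 FPKM in DM. The groups overlapped, and without Ctrl1 the log2 difference was -0.05. The annotated gene Gm42688 shares 88% of its exon length on the same strand, so its reads could be split between both.

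**Figure D3:**
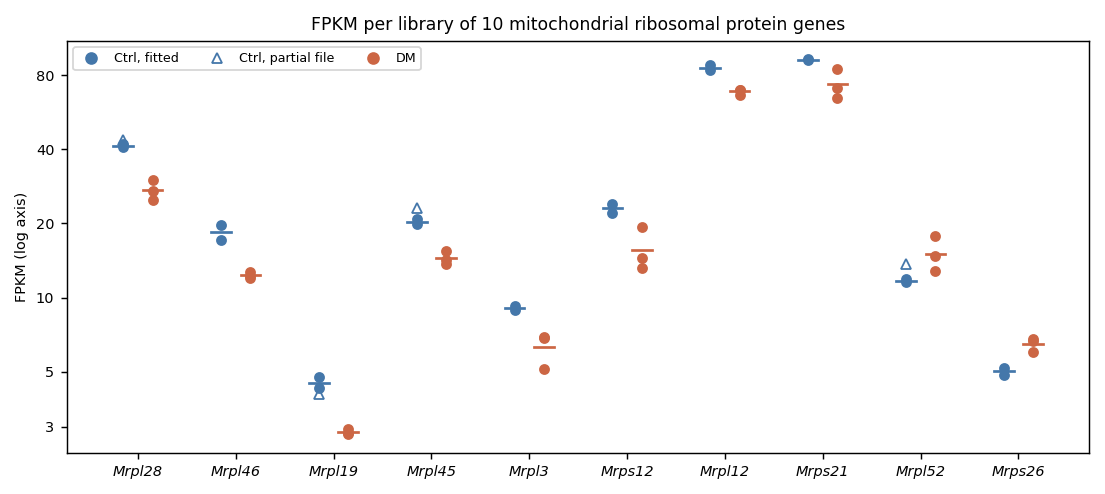
FPKM per library (log axis) of 10 genes of both subunits, with circles for the fitted libraries, open triangles for Ctrl3 where its file lists the gene and lines for the mean of the fitted libraries. The first 8 genes have every DM circle below every Ctrl point, and Mrps26 has the reverse order.

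In the small subunit, Mrps12, a protein of the decoding centre, had the most negative difference. It was at 22.1 and 24.1 FPKM in Ctrl1 and Ctrl2 and at 19.4, 13.1 and 14.5 FPKM in DM (log2 difference -0.54 ± 0.18, SE, limma adjusted p = 0.123). Mrps21 had the highest mean FPKM of all 78 genes, with 92.0 and 92.5 FPKM in Ctrl1 and Ctrl2 and 70.7, 64.7 and 84.9 FPKM in DM. The groups did not overlap, and DM3 was the DM library nearest to Ctrl (log2 difference -0.33 ± 0.15, SE, limma adjusted p = 0.210). Mrps7 and Mrps28, both conserved from bacteria, went from means of 29.9 and 32.5 FPKM in Ctrl to 25.9 and 28.0 FPKM in DM, with overlap between groups for Mrps28 alone.

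Mrps23 varied widely within both groups. It was at 33.9, 59.9 and 56.3 FPKM in the Ctrl libraries and at 48.5, 69.0 and 38.0 FPKM in DM, so that no direction can be read (log2 difference 0.16 ± 0.32, SE, limma adjusted p = 0.788, and -0.25 without Ctrl1). The ratio of the highest to the lowest library had a median of 1.08 over the members in Ctrl (2 libraries) and of 1.24 in DM (3 libraries).

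A few members had higher values in DM. Mrps26, a mitochondria-specific small subunit protein, was at 4.87 and 5.18 FPKM in Ctrl1 and Ctrl2 and at 6.68, 6.01 and 6.79 FPKM in DM, with no overlap. It was the 1 member with a positive difference at an unadjusted p under 0.05 (log2 difference 0.31 ± 0.12, SE, limma adjusted p = 0.158). Mrpl52 was at 11.6, 11.9 and 13.7 FPKM in Ctrl1, Ctrl2 and Ctrl3 and at 12.9, 14.7 and 17.7 FPKM in DM, and Ctrl3 lay inside the DM range (log2 difference 0.33 ± 0.16, SE, limma adjusted p = 0.239). Mrpl27 (16.4, 19.3 and 18.2 against 20.6, 19.4 and 23.8 FPKM) did not overlap with Ctrl3 included, by a narrow margin between Ctrl2 and DM2. Mrpl23 and Mrps18b had log2 differences of 0.20 and 0.18, with overlapping groups in both.

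The symbols do not fully match the structure of the particle. In solved structures the products of Mrps30 and Mrps18a sit in the large subunit, and Mrps36 has been assigned to the oxoglutarate dehydrogenase complex instead of the ribosome. Mrps30 was at 4.0, 4.63 and 4.12 FPKM in Ctrl and 4.02, 4.31 and 4.19 FPKM in DM, Mrps18a at 12.4, 11.8 and 14.96 against 10.6, 11.3 and 12.2 FPKM, and Mrps36 at 43.6 and 43.7 against 35.8, 41.1 and 47.3 FPKM. Their log2 differences were -0.04, -0.08 and -0.08, the first turning positive in TPM. With subunits taken from the structures, the medians were -0.22 over 51 large and -0.16 over 26 small subunit genes.

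Conversely, 5 proteins of the particle carry other symbols, and 1 of them passed the test, where 2.17% of all tested genes were called lower. At an unadjusted limma p under 0.05, 1 was lower and 0 higher, beside 10.2% and 16.4% of all genes. Aurkaip1, a small subunit protein, was at 20.95 and 21.92 FPKM in Ctrl1 and Ctrl2 and at 10.6, 11.5 and 13.1 FPKM in DM. The groups lay far apart, and Aurkaip1 fell by 0.82 ± 0.13 on the log2 scale (SE, limma adjusted p = 0.0268). Its adjusted p was 0.187 without Ctrl1, 0.195 without Ctrl2, 0.0572 without DM1, 0.0584 without DM2, 0.0666 with the replicate block and 0.0762 with no filter on low values. Ptcd3 (10.8 and 12.1 against 10.5, 7.96 and 7.48 FPKM) and Chchd1 (42.0 and 37.0 against 29.0, 38.7 and 31.6 FPKM) had log2 differences of -0.38 and -0.26. Gadd45gip1 (log2 difference -0.08) and Dap3 (log2 difference 0.13) showed smaller ones.

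Cytosolic ribosomal protein genes showed the reverse pattern in the same libraries. Of 77 tested, 76 had a positive difference, 28 passed the test upward and 0 downward, and the median was 0.60, beside 3.64% called higher and 43% negative over all genes tested. The number passing upward was 0 without Ctrl1 or Ctrl2, 18 without DM1, 2 without DM2 and 10 without DM3. Their summed FPKM were 6815 and 7271 in Ctrl and 9674, 11198 and 12152 in DM. Mrpl49 (chromosome 19, 6053622 to 6057785) and Fau, whose product is processed to a protein of the small cytosolic subunit, are transcribed away from each other. Mrpl49 was at 18.03, 19.05 and 16.5 FPKM in Ctrl and at 13.0, 12.75 and 15.02 FPKM in DM. Fau was at 90.9 and 95.8 FPKM in Ctrl1 and Ctrl2 and at 114, 142 and 172 FPKM in DM. The log2 differences were -0.42 (limma adjusted p = 0.103) and 0.58 (limma adjusted p = 0.115), opposite in sign with no overlap in either gene. The difference between them was not tested.

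**Figure D4:**
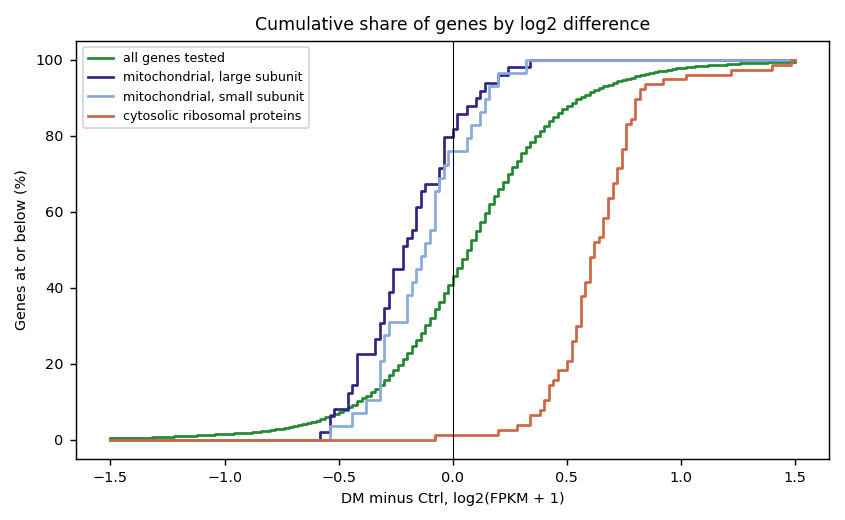
Cumulative share of genes (y axis, %) by their difference between DM and Ctrl on the log2(FPKM + 1) scale (x axis). Both mitochondrial curves run left of the curve of all genes tested over the middle of the range, and the curve of the cytosolic ribosomal protein genes runs right of it.

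Mitochondrial ribosomal protein genes often lie head to head with another gene. By the annotated gene starts, 26 of the 78 members (33.3%) had a protein-coding gene on the opposite strand whose start lay within 1000 bases upstream or overlapped by up to 500 bases, against 14.8% of nuclear protein-coding genes tested. Another such pair consists of members of both subunits. Mrps11 was at 6.90 and 7.08 FPKM in Ctrl1 and Ctrl2 and at 5.79, 5.69 and 8.38 FPKM in DM, a log2 difference of -0.09 with overlapping groups, beside -0.54 for its partner Mrpl46. Because exons of these genes overlap (12.2% of Mrpl46 and 7.97% of Mrps11), part of their reads may be shared. The DNA between the RefSeq starts of each pair is given for the strand of Fau and of Mrps11, since the genes of a pair start at its edges in RefSeq. The difference between Mrpl46 and Mrps11 was not tested. The YY1 motif AAGATGG, searched on either strand, was matched outside both stretches. It lies 215 to 209 bases before the start of Mrpl49 and 106 to 100 bases before that of Mrps11. By the annotation used for the gene coordinates, parts of both stretches lie inside these genes (chr19:6057756-6057946 and chr7:78783090-78783130, GRCm38.p6, plus strand, all in lower case because no searched motif was found within them).
Mrpl49-Fau: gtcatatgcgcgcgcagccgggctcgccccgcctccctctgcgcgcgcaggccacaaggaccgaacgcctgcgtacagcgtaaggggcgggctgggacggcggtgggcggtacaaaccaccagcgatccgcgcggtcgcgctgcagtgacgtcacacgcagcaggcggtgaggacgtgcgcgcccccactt
Mrpl46-Mrps11: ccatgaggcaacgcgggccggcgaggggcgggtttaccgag

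Promoter sequences from RefSeq (GRCm38.p6, 250 bases before to 50 after the start) were matched for 69 of the 78 members and for 8141 tested symbols. Motifs of factors known to bind promoters of nuclear genes for mitochondrial proteins were searched on both strands. The ETS motif CCGGAAG, bound by GABPA, was found in 26 members (37.7%), against 20.8% of the tested genes and 9.93% of all genes in the table. The YY1 motif AAGATGG was in 13 members (18.8%), against 8.93% of the tested genes. The palindromic NRF1 motif was in 3 members (4.35%), against 2.37% of the tested genes, and with a middle base unspecified, a form that contains the exact motif, in 13 (18.8%), against 11.9%. The median log2 difference was -0.23 with and -0.17 without the ETS motif, -0.23 with and -0.17 without the YY1 motif, and -0.15 with and -0.18 without the unspecified-base NRF1 motif. For the 3 members with the exact NRF1 motif it was 0.11, and -0.19 for the other matched members.

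The 250 bases before the start are shown for Mrpl28, Mrpl45 and Mrpl12, the first 2 being members with an adjusted p under 0.1 and the last the large subunit gene with the highest mean FPKM. Mrpl46, also under 0.1, held no match in the same window, whose last bases are, on the other strand, those given with Mrps11. Mrpl19, also under 0.1, had no matched promoter sequence and was not searched. The printed stretches lie at chr17:26123253-26123502, chr11:97315466-97315715 and chr11:120484387-120484636, all on the plus strand. Capitals mark matches to the unspecified-base NRF1 motif on either strand, of which Mrpl45 held 2, Mrpl12 held 1 and Mrpl28 held none.
Mrpl28: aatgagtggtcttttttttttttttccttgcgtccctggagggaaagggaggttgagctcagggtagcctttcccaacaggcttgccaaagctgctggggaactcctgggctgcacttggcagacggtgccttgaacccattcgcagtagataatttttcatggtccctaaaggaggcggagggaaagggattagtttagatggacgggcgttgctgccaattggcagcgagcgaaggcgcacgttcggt
Mrpl45: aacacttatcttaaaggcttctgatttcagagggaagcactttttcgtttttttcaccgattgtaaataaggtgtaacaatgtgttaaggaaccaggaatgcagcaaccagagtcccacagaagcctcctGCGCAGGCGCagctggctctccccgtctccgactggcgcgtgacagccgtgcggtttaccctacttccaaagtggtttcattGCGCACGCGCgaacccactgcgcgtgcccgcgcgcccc
Mrpl12: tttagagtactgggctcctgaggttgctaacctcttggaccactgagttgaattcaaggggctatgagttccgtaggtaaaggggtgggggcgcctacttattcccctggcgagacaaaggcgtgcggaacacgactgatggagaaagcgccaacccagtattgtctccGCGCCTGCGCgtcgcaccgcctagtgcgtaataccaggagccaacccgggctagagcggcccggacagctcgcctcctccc

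Of the factors named, Nrf1 stayed under the filter in these libraries (0.72 and 0.64 FPKM in Ctrl, 0.44 to 0.88 in DM). Gabpa and Yy1 had log2 differences of -0.08 and 0.07 and did not pass. The coactivator Ppargc1a was at 12.2, 10.3 and 21.4 FPKM in the Ctrl libraries and at 17.4, 17.4 and 12.6 FPKM in DM, so that DM lay above Ctrl1 and Ctrl2 but below Ctrl3. Its relative Ppargc1b was at 1.69 and 1.33 FPKM in Ctrl1 and Ctrl2 and at 2.78, 4.23 and 2.41 FPKM in DM, with no overlap (log2 difference 0.70 ± 0.21, SE, limma adjusted p = 0.0986). Of the 9 biogenesis regulators 8 were tested and 5 had a positive difference. Beside 3.64% of all tested genes called higher, Myc passed (0.57, 1.21 and 1.05 against 2.40, 2.55 and 2.30 FPKM, limma adjusted p = 0.0440). It did not pass in any fit without 1 library (adjusted p from 0.0843 to 0.257).

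The ribosomal RNAs of the mitochondrial ribosome were also lower. The large rRNA, mt-Rnr2, was at 3861 and 3609 FPKM in Ctrl1 and Ctrl2 and at 1501, 1673 and 1516 FPKM in DM. It fell by 1.26 ± 0.10 on the log2 scale (SE, limma adjusted p = 0.00707), and its adjusted p was 0.0901 without Ctrl1, 0.0741 without Ctrl2 and 0.0621 with no filter on low values. The small rRNA, mt-Rnr1, was at 2199 and 2002 FPKM in Ctrl and at 949, 1401 and 1486 FPKM in DM, with no overlap (log2 difference -0.74 ± 0.21, SE, limma adjusted p = 0.0879). The libraries were made from poly(A)-selected RNA, in which rRNA is captured only in part, and mitochondrial sequences have near-identical copies in the nuclear genome that can share reads. Mitochondrial genes made up 47.2% ± 0.177 of the FPKM total in Ctrl (SD, n = 2) and 43.6% ± 1.78 in DM (SD, n = 3). FPKM of nuclear genes are scaled to all mapped fragments of the library, those of mitochondrial genes among them.

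The other genes of mitochondrial protein synthesis were read from lists of their functions. Of 15 translation factors 12 had a negative difference, with a median of -0.32. In limma 1 passed as lower, beside 2.17% of all tested genes. At an unadjusted limma p under 0.05, 6 were lower and 0 higher, beside 10.2% and 16.4% of all genes. The initiation factor Mtif2 passed, at 9.12, 10.1 and 9.75 FPKM in Ctrl and 6.41, 5.38 and 5.36 FPKM in DM. It fell by 0.66 ± 0.13 on the log2 scale (SE, limma adjusted p = 0.0434). The call did not hold in TPM (adjusted p = 0.0613), with no filter (0.104), with the replicate block (0.128) or without any 1 of the 5 libraries (adjusted p from 0.0572 to 0.264). The elongation factors Tufm (77.0 and 62.7 against 44.3, 50.5 and 44.8 FPKM) and Gfm1 (41.3, 36.9 and 39.9 against 28.1, 26.5 and 18.4 FPKM) did not overlap between groups and did not pass (limma adjusted p = 0.0720 and 0.0962). Taco1, an activator of the translation of cytochrome oxidase subunit I, was at 29.8, 25.2 and 23.7 FPKM in Ctrl and at 15.8, 14.5 and 7.25 FPKM in DM (limma adjusted p = 0.0877). The insertase Oxa1l, which docks the ribosome at the inner membrane, was at 18.2, 18.3 and 18.5 FPKM in Ctrl and at 20.6, 19.9 and 20.2 FPKM in DM.

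All 19 tested genes for charging mitochondrial tRNAs had a negative difference (median -0.19), and 0 of them passed. At an unadjusted p under 0.05, 5 were lower and 0 higher, a level that 10.2% (lower) and 16.4% (higher) of all genes reached, also beside the next lists. Lars2, the leucine enzyme, was at 2.25 and 2.79 FPKM in Ctrl1 and Ctrl2 and at 1.29, 1.62 and 1.39 FPKM in DM (limma adjusted p = 0.0783). Of 25 tested ribosome assembly genes 17 were negative (median -0.15, 0 passed in limma, 5 lower and 0 higher at an unadjusted p under 0.05). Among them the rRNA-binding protein Fastkd2 was at 3.5, 3.13 and 3.46 FPKM in Ctrl and 2.22, 1.98 and 1.70 FPKM in DM (limma adjusted p = 0.0704). Of 9 tested genes of mitochondrial DNA transcription and replication 7 were negative (median -0.16, 0 passed, and 1 was lower and 0 higher at an unadjusted p under 0.05). Of 13 mitochondrially encoded protein genes 10 were negative (median -0.19), and 0 passed in limma, with 5 lower and 0 higher at an unadjusted p under 0.05.

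**Figure D5:**
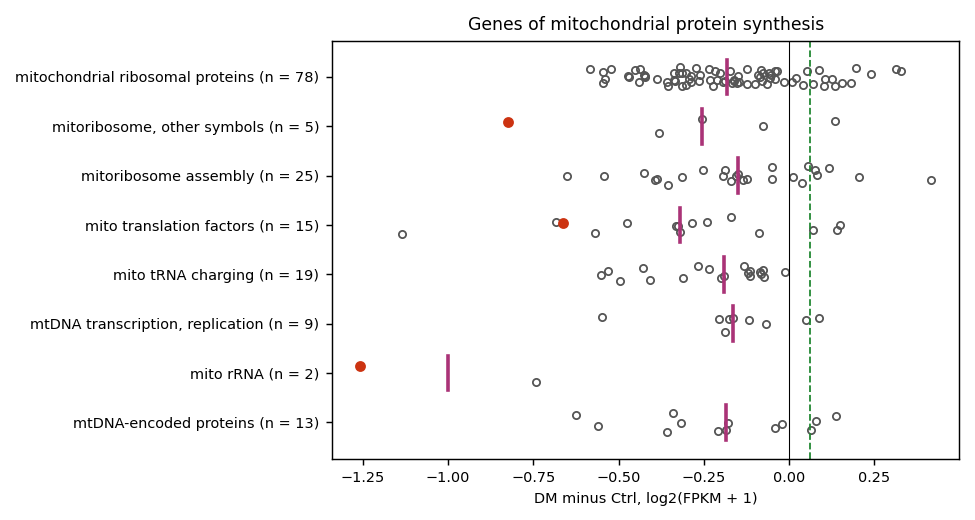
Difference between DM and Ctrl on the log2(FPKM + 1) scale (x axis) for each tested gene of the lists of mitochondrial protein synthesis, with filled points for genes past an adjusted p of 0.05, vertical bars for list medians and a dashed line for the median of all genes tested. The filled points are Aurkaip1, Mtif2 and mt-Rnr2, and every list has a median below 0.

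Among the 78 members, the log2 difference was almost unrelated to the mean FPKM (Spearman rho -0.13 across genes, which share their libraries and are not independent) and to exon length (rho 0.18). Levels spanned means over the 5 libraries of 1.38 FPKM (Mrps10) to 80.9 FPKM (Mrps21), with a median of 13.7 FPKM. The 45 members whose exons overlap no other gene had 36 negative differences and a median of -0.17, and the 33 with an overlap had 26 and a median of -0.23. Mrps25 shares 69.8% of its exon length with Nr2c2 on the opposite strand, and Mrps34 shares 63.4% with Mapk8ip3 on the opposite and 37.0% with Nme3 on the same strand, so that the values of these genes are uncertain. Of 5 processed pseudogenes with member symbols, Mrps36-ps1, Mrps36-ps2, Mrpl23-ps1 and Mrpl48-ps were at 0.61 to 3.77 FPKM and Mrps36-ps3 was listed at 0.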

How the data were processed

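RNA from myocardium was sequenced after poly(A) selection with dUTP marking of the second strand, per the labels' protocols. Each deposited file lists FPKM for the genes of 1 library, which the authors gave to 2 decimals. The authors used cutadapt 1.9, HISAT2 2.0.4, StringTie 1.3.4d and GRCm38, per the submitters' processing notes; no source used here gives the strand setting or annotation release. The Ctrl3 file stops early, and its last line, which may be cut, was dropped.

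Identifiers were matched to GENCODE M21 (55141 of 55401). The 11556 genes that reached 1 FPKM in 2 or more of the 5 complete libraries entered limma 3.58.1 (R 4.3.3) as log2(FPKM + 1), so with pseudocount 1 (eBayes with trend, two-sided, Benjamini-Hochberg adjustment over all genes tested, threshold 0.05). Libraries listing under 50% of the genes were not fitted. A log2 difference on this scale understates that of low genes.

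The members and lists were chosen with earlier results of these data known. Named are the 6 largest differences in each direction, the 5 highest mean FPKM per subunit, members whose symbol and structure differ, proteins of the particle with other symbols and list genes past the threshold. Mrpl45, Mrpl49, Mrps11, Mrpl9, Mrpl32, Mrps10, Mrps25, Mrps34 and the list genes given without a call were added after their values were seen. Alternatives changed the pseudocount, filter, scaling, trend, threshold, replicate block and libraries.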

Additional observations from a re-analysis of the deposited data

How the results depend on the processing

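The median log2 difference stayed negative in both subunits under the 17 alternatives, from -0.29 to -0.18 for the large and from -0.20 to -0.06 for the small subunit, and the count of negative members was 54 (of 65 tested, filter at 5 FPKM) to 67. Members past the threshold, all lower in DM, numbered 2 with the filter at 5 FPKM (Mrpl28 and Mrpl46), 3 after median centring and 3 after rescaling to nuclear protein-coding genes (Mrpl19, Mrpl28 and Mrpl46 in both), 2 after quantile normalization (Mrpl19 and Mrpl28), 4 at an adjusted p of 0.1, and 5 with Ctrl3 added (Mrpl19, Mrpl28, Mrpl37, Mrpl45 and Mrpl46, where 3.75% of all genes were called lower). Ctrl3 gives no value for Mrpl46, whose difference was the same in that fit. With 1 library left out the count was 0 to 1 (Mrpl28 without DM3). Over all genes 672 passed, 62.6% of them higher in DM. The share was 48.5% after centring, 50.2% after quantile normalization and 73.8% in TPM, and it reached 75% without Ctrl1 over the fits that left out 1 library (lowest 57.9%). The number passing was 81 with no filter, 1171 with Ctrl3 added, 1642 at an adjusted p of 0.1, and 24 to 398 with 1 library left out (24 without Ctrl1 and 29 without Ctrl2, where the lone Ctrl library is assumed to vary like the DM group).

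With the replicate number as a block 64 genes and 0 members passed, and the medians were -0.27 (large) and -0.20 (small). The numbers share no stated origin. The correlations of same-numbered deviations were 0.18, -0.05 and 0.15, and those of differently numbered ones ran from -0.23 to 0.09. Deviations from a mean of 3 libraries depend on each other, so these values cannot decide whether the libraries are paired. Myl7 fell with the replicate number in both groups (262, 37.9 and 0.21 FPKM in Ctrl, 357, 73.7 and 0.28 FPKM in DM). The origin of that order was not tested. The block leaves DM3 without a partner. Of the 78 members, 7 turned positive in TPM, 5 turned negative after centring and 5 after quantile normalization, 4 turned negative after rescaling, 5 turned with the block, 1 with Ctrl3 added, and 3 to 6 with 1 library left out. Among the genes chosen for naming these were Mrps23 (-0.25 to 0.56 with 1 library left out, negative without Ctrl1 and, at -0.07, without DM2), Mrps30 (0.021 in TPM and -0.12 to 0.049 with 1 library left out, positive without Ctrl2) and Mrps36 (-0.18 to 0.015, positive without DM1), and, outside the members, Gadd45gip1 (-0.20 to 0.0047, positive without DM1). The causes of these shifts were not tested. Without counts, depth cannot be set against differences of this size.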
